A study of Arabidopsis thaliana with 12 samples.

Results

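The genes described here are 10 *Arabidopsis thaliana* genes of iron storage and iron uptake, which were chosen by their loci: the ferritins *FER1* (AT5G01600), *FER2* (AT3G11050), *FER3* (AT3G56090) and *FER4* (AT2G40300), the root uptake genes *IRT1* (AT4G19690) and *FRO2* (AT1G01580), and the regulators *FIT* (AT2G28160), *bHLH38* (AT3G56970), *bHLH39* (AT3G56980) and *bHLH100* (AT2G41240). All 10 genes had a probe on the array and all 10 were tested, among 23936 features in all. RNA of whole seedlings was hybridized to one-colour Agilent arrays, from Col-0, the wild type, and from iU1-52, a line that carries the mutant allele *glcna.ut2-1* together with double-stranded RNA interference against *GlcNA.UT1*. The enzymes of both genes make UDP-GlcNAc, the sugar donor of protein N-glycosylation, and the study asked how the line differs from the wild type in gene expression with and without salt. Both lines were sown on plates of Murashige and Skoog medium with sucrose (MS) or on the same medium with 200 mM NaCl added (NaCl) and were harvested after 14 days, which gave 4 groups of 3 biological replicates with 1 array each. iU1-52 is a single transgenic line that carries both alleles at once, so the groups do not separate the interference from the *glcna.ut2-1* allele. The seedlings of the salt groups had germinated on salt. The paper reports that such lines germinated late on salt. It adds that most of their seedlings were arrested after germination, with cotyledons that neither expanded nor turned green. Line differences in NaCl and interactions may thus compare seedlings of different stages, and the part of stage in them was not tested.

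Arabidopsis, like other plants that are not grasses, takes up iron by first reducing ferric iron at the root surface, which the reductase FRO2 does, and by then importing the ferrous ion through the transporter IRT1. The bHLH factor FIT pairs with the subgroup Ib factors bHLH38, bHLH39 and bHLH100, which iron shortage is known to induce, and such pairs switch on *FRO2* and *IRT1* in the root. Ferritins are protein cages, mainly of plastids, that store iron in a harmless form. The transcripts of some of them, though not of every ferritin, are known to rise with iron excess, and *FER2* is the form of the seed.

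Levels are given as log2 of the quantile normalized intensity, and a difference was called at an adjusted p under 0.05 (limma, Benjamini-Hochberg over all features) together with a change of at least 2-fold. Each SE and interval rests on a spread per gene that was pooled over the 4 groups, so it is not the spread of the groups compared alone. Levels of different genes come from different probes and were not set against each other. *bHLH38* and *bHLH39* are neighbours on chromosome 3 with 0 genes between them, and cross-hybridization between such copies was not tested.

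As a check of the line label, *GlcNA.UT2* was lower in iU1-52 in MS by a called difference of -1.003 (SE 0.12), just past the 2-fold criterion. Its difference in NaCl was -0.53 and was not called. The paper reports no significant reduction of this gene in the line, and proposes that a truncated transcript is still detected by the probes. No probe was matched to *GlcNA.UT1*. Replicate 1 of iU1-52 in NaCl stood apart from its group, with a score of 50.77 on the third principal component against -19.85 and -14.33, and the median SD between replicates was 0.215 in this group and 0.0715 to 0.0793 in the others. Results that this array changes are given with and without it. Markers of the root were measured in every group: the 8 genes of root epidermis and hairs, the 7 of inner root tissues and the 3 of the root cap were well above background on all arrays. Of 11 seed and embryo markers, 9 were above background on 0 arrays of each group in MS, 8 of them the same in both groups, and all 11 were above background on every array with salt.

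The response to salt differed between the lines for 4 of the 10 genes by the test of the interaction. *FER2* rose in both lines and more in iU1-52, and *FER1* was called lower in Col-0 alone. *FIT* was called lower and *FRO2* higher in iU1-52 alone. *FER4* was also called lower with salt in iU1-52 alone, but its interaction was not called. In Col-0 the differences of *FER4* (-0.47) and *FRO2* (0.98) had the same direction as in iU1-52 and were under 2-fold. In Col-0, 3 of the 10 genes were called, where 23.2% of all features were called, and 2 of them were higher (11% of all features) and 1 lower (12.2%). The higher ones include *bHLH100*, which was above background on 1 of 3 arrays of Col-0 in MS. Its call was lost when some single arrays were left out. In iU1-52, 5 of the 10 were called, where 27.4% of all features were called, and 2 were higher (13.1%) and 3 lower (14.3%). The latter include *bHLH39*, which was tested only because of its signal in iU1-52 in MS, and 4 of the 10 were called without it. Between the lines 0 of the 10 were called in MS, where 0.326% of all features were called (0.301% higher and 0.0251% lower), and 1 of the 10, *FER3*, had an unadjusted p under 0.05 there. The methods' 2-way test with the fold criterion also passed 0 of the 10 in MS. It asks for an adjusted p under 0.05 in any of the line, salt and interaction terms, so it is no test of a single comparison. In NaCl, 3 of the 10 differed between the lines (*FER2* and *FRO2* higher and *FIT* lower in iU1-52), where 11% of all features were called (5.35% higher and 5.65% lower). The interaction, the line difference in NaCl minus that in MS, was called for 4 of the 10, positive for *FER1*, *FER2* and *FRO2* and negative for *FIT*, where 9.5% of all features were called (4.26% positive and 5.24% negative).

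**Figure D1:**
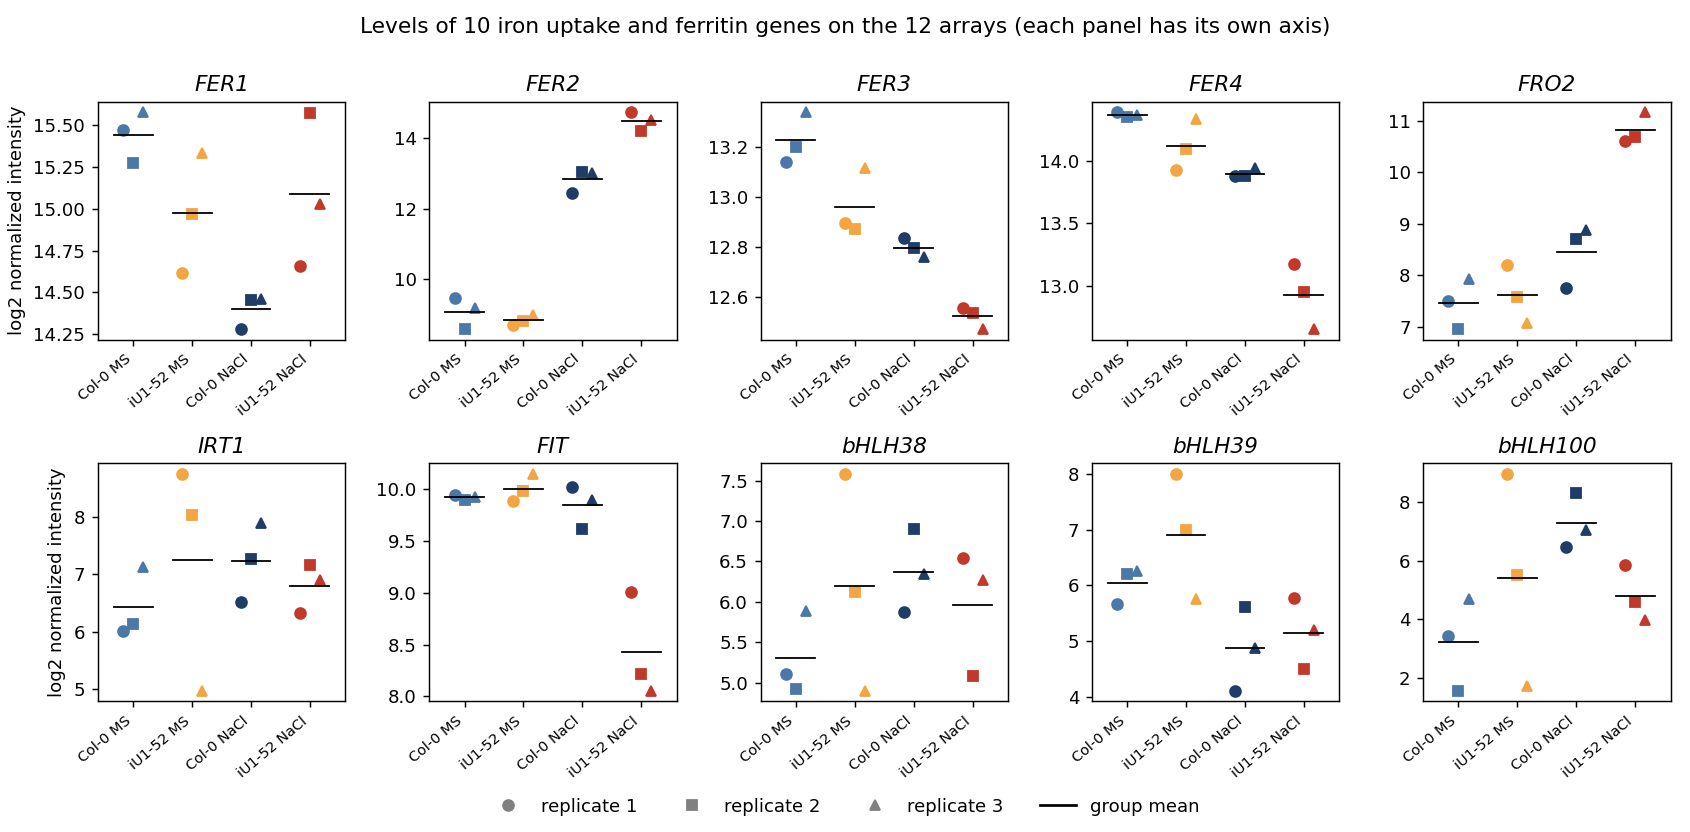
Log2 normalized intensity (y axis) of each of the 10 genes on the 12 arrays, by group, with a symbol per replicate and a line at the group mean. *FER2* and *FRO2* are highest and *FIT* and *FER4* lowest in iU1-52 in NaCl, and the 3 iU1-52 arrays in MS lie far apart for *IRT1* (8.75, 8.03 and 4.97) and *bHLH100* (8.94, 5.51 and 1.74).

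*FER2*, the seed ferritin, had the largest called rise among the 10 genes, that with salt in iU1-52. In MS its levels were 9.47, 8.61 and 9.20 in Col-0 and 8.71, 8.83 and 8.999 in iU1-52. In NaCl they were 12.44, 13.04 and 13.02 in Col-0 and 14.72, 14.18 and 14.50 in iU1-52. The lines overlapped in MS, both groups in NaCl lay above every array in MS, and in NaCl every iU1-52 array lay above every Col-0 array. Salt raised *FER2* by 3.74 (SE 0.23, 13.4-fold, adjusted p = 3.3e-07) in Col-0 and by 5.62 (SE 0.23, 49.3-fold, adjusted p = 8.9e-09) in iU1-52. The line difference was -0.24 (95% CI -0.76 to 0.28) in MS and 1.64 (SE 0.23, adjusted p = 0.00029) in NaCl, which gave an interaction of 1.88 (SE 0.33, adjusted p = 0.0024). Within the 3 slides the interaction was 3.04, 0.91 and 1.69.

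The seed and embryo markers moved with *FER2*. All 11 were called higher with salt in each line, and in NaCl all 11 were called higher in iU1-52. They passed the signal limit only through arrays with salt, on which they are high, so their calls with salt are a description. Their summed normalized signal was 114 to 141 on the arrays in MS, 209910 to 458715 in Col-0 in NaCl and 1333380 to 1466140 in iU1-52 in NaCl. Their part in the *FER2* result was not tested, and in whole seedlings more cells of a type and more RNA per cell cannot be told apart.

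*FER1*, a ferritin of leaves and roots, took a different course. Its levels were 15.47, 15.27 and 15.58 in Col-0 in MS and 14.28, 14.45 and 14.46 in Col-0 in NaCl, without overlap. In iU1-52 they were 14.61, 14.97 and 15.33 in MS and 14.66, 15.57 and 15.03 in NaCl, and these groups overlapped. Salt lowered *FER1* in Col-0, where the level fell by 1.04 (SE 0.23, 2.06-fold, adjusted p = 0.002), whereas in iU1-52 the difference was 0.11 (95% CI -0.39 to 0.62, adjusted p = 0.67). The interaction of 1.16 (SE 0.32, adjusted p = 0.022) was called, and it was 1.23, 1.42 and 0.81 within the 3 slides. In NaCl iU1-52 was higher by 0.69 (adjusted p = 0.027), which is under 2-fold.

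Both calls for *FER1* lay close to the 2-fold criterion. On the other 2 probes of the gene, the salt difference in Col-0 was -0.96 and -0.83, and the interaction was 1.098 and 0.95. With scaling to the 75th percentile these values were -0.85 and 0.97, under 2-fold. The call in Col-0 was also lost with the mean of all probes (-0.94), and without replicate 3 of Col-0 in MS (-0.97) or replicate 1 of Col-0 in NaCl (-0.98). Without either of these arrays the interaction stayed over 2-fold (1.09 and 1.097) but lost its call by the adjusted p (0.054 and 0.057). The call of the interaction was also lost without replicate 1 of iU1-52 in MS (0.98, adjusted p = 0.051) and without replicate 2 of iU1-52 in NaCl (0.91, adjusted p = 0.034). Without the array that stood apart, the interaction was 1.37.

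*FER4*, a further ferritin of vegetative organs, was lowest in iU1-52 with salt. Its levels were 14.39, 14.35 and 14.37 in Col-0 in MS, 13.93, 14.10 and 14.34 in iU1-52 in MS, 13.88, 13.88 and 13.94 in Col-0 in NaCl, and 13.17, 12.95 and 12.66 in iU1-52 in NaCl. No array of iU1-52 in NaCl reached the lowest array of any other group. Salt lowered *FER4* in iU1-52, where it fell by 1.19 (SE 0.13, 2.29-fold, adjusted p = 1.3e-05), and the difference in Col-0 was -0.47 (adjusted p = 0.0083), under 2-fold. The line difference in NaCl was -0.97 (SE 0.13, adjusted p = 0.00019), or 1.96-fold, just under the criterion, and it was -1.10 and called without replicate 1 of iU1-52 in NaCl. The interaction of -0.73 (adjusted p = 0.015) was under 2-fold. Both probes of the gene gave close values, with -1.19 and -1.11 for salt in iU1-52.

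*FER3*, the remaining plastid ferritin, showed small differences. Its levels were 13.14, 13.20 and 13.34 in Col-0 in MS, 12.90, 12.87 and 13.12 in iU1-52 in MS, 12.84, 12.80 and 12.76 in Col-0 in NaCl, and 12.56, 12.54 and 12.47 in iU1-52 in NaCl. In each medium every iU1-52 array lay below every Col-0 array, and in each line every array with salt lay below every array without. The differences were -0.43 (SE 0.08, adjusted p = 0.00082) with salt in Col-0, -0.44 (adjusted p = 0.00065) with salt in iU1-52, -0.26 (adjusted p = 0.34) between the lines in MS and -0.28 (adjusted p = 0.017) between them in NaCl. None reached 2-fold, and the interaction was -0.01 (95% CI -0.26 to 0.24).

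The green tissue markers were lowest in the group in which *FER4* was lowest. Of 9 such genes, 1 was called lower with salt in Col-0, and 6 were called lower with salt in iU1-52, and 6 were called lower in that line when both lines had salt. Their summed signal was 1823190 to 1934770 on the arrays in MS, 1982820 to 2014500 in Col-0 in NaCl and 950836 to 1063950 in iU1-52 in NaCl. Their part in the *FER4* result was not tested.

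**Figure D2:**
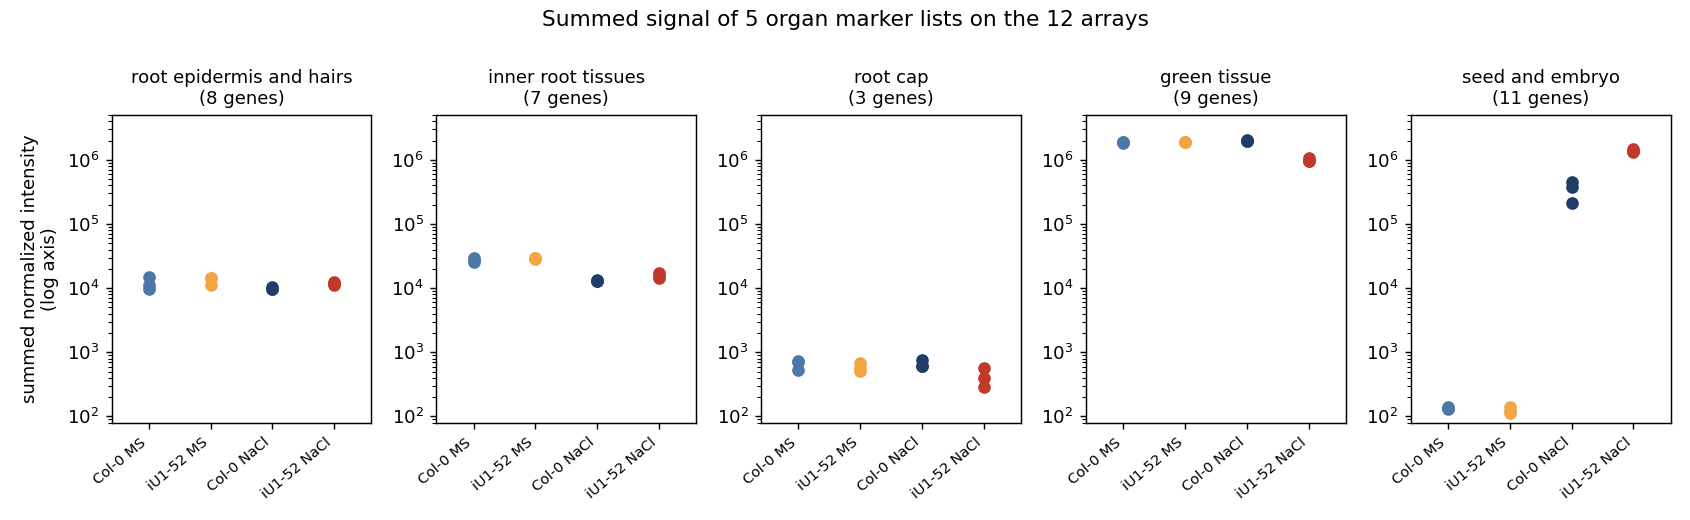
Summed normalized intensity (y axis, log scale) of 5 organ marker lists on the 12 arrays, 1 point per array, by group. The seed and embryo list lies at 114 to 141 in MS and at 1333380 to 1466140 in iU1-52 in NaCl, and the green tissue list is lowest in iU1-52 in NaCl.

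*FRO2*, the ferric reductase of the root surface, rose with salt in iU1-52. Its levels were 7.51, 6.97 and 7.93 in Col-0 in MS, 8.21, 7.58 and 7.07 in iU1-52 in MS, 7.76, 8.71 and 8.89 in Col-0 in NaCl, and 10.60, 10.69 and 11.16 in iU1-52 in NaCl. The first 3 groups overlapped, and all arrays of iU1-52 in NaCl lay above them. Salt raised *FRO2* by 3.19 (SE 0.37, 9.15-fold, adjusted p = 1.9e-05) in iU1-52. The difference in Col-0 was 0.98 (SE 0.37, 1.98-fold, adjusted p = 0.034), just under 2-fold, and it was 1.33 without replicate 1 of Col-0 in NaCl and 1.21 without replicate 3 of Col-0 in MS, both called. In NaCl iU1-52 was higher by 2.36 (SE 0.37, 5.14-fold, adjusted p = 0.0005). The interaction was 2.21 (SE 0.52, adjusted p = 0.01), with 2.14, 1.36 and 3.13 within the 3 slides.

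*IRT1*, the ferrous iron transporter, showed no called difference. Its levels were 6.01, 6.13 and 7.13 in Col-0 in MS, 8.75, 8.03 and 4.97 in iU1-52 in MS, 6.52, 7.27 and 7.90 in Col-0 in NaCl, and 6.32, 7.16 and 6.89 in iU1-52 in NaCl. All 4 groups overlapped, and iU1-52 in MS held both the highest and the lowest array. Unlike *FRO2*, *IRT1* differed by -0.46 (95% CI -2.26 to 1.34) with salt in iU1-52 and by -0.44 (95% CI -2.24 to 1.36) between the lines in NaCl. The pooled spread behind these intervals was widened by iU1-52 in MS (SD 2.00), while the SD in NaCl was 0.69 in Col-0 and 0.43 in iU1-52. Its interaction was -1.27 (SE 1.15, adjusted p = 0.42). Without replicate 3 of iU1-52 in MS, the salt difference in iU1-52 was -1.60 (adjusted p = 0.013), and an interaction of -2.40 (adjusted p = 0.022) was also called. The signal was 29.4 to 439 before normalization and reached the limit of 100 on 7 of the 12 arrays, so the gene was dim here.

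*FIT*, the central regulator of *FRO2* and *IRT1*, fell with salt in iU1-52. Its levels were 9.94, 9.90 and 9.93 in Col-0 in MS, 9.89, 9.98 and 10.15 in iU1-52 in MS, 10.02, 9.62 and 9.90 in Col-0 in NaCl, and 9.01, 8.22 and 8.06 in iU1-52 in NaCl. The first 3 groups lay within 9.62 to 10.15 and overlapped, and the arrays of iU1-52 in NaCl lay below all of them. In iU1-52 the level fell by 1.58 with salt (SE 0.21, 2.98-fold, adjusted p = 6e-05), while the difference in Col-0 was -0.08 (95% CI -0.54 to 0.39). The line difference in NaCl was -1.42 (SE 0.21, adjusted p = 0.00037), with an interaction of -1.50 (SE 0.30, adjusted p = 0.0044). Within the 3 slides the interaction was -0.95, -1.49 and -2.06, and without replicate 1 of iU1-52 in NaCl it was -1.79. The other probe of the gene gave -1.63 for salt in iU1-52 and -1.54 for the interaction.

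In iU1-52 with salt, *FIT* and *FRO2* moved in opposite directions. The root markers gave no called line difference in NaCl for any of the 8 genes of root epidermis and hairs, where *FRO2* and *IRT1* are known to act, while 1 of the 7 inner root genes was called higher and 1 of the 3 root cap genes lower in iU1-52. The line differences of the epidermis list in NaCl ran from -0.37 to 1.03. Its summed signal was 9663 to 10526 in Col-0 and 11288 to 12335 in iU1-52 in NaCl, and 9785 to 15017 in Col-0 and 11110 to 14610 in iU1-52 in MS. With salt, 1 of its 8 genes was called higher and 2 lower in Col-0, and 0 higher and 2 lower in iU1-52. The inner root markers summed to 25261 to 29878 in MS and 13075 to 17082 in NaCl, with 2 of 7 called lower with salt in each line, and 1 of 7 in Col-0 and 2 of 7 in iU1-52 called higher. The part of these lists in the results for *FRO2* and *FIT* was not tested.

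The 3 subgroup Ib genes were dim and variable. *bHLH100* was above background on 1 of the 3 arrays of Col-0 in MS and on 2 of the 3 of iU1-52 in MS. Its levels were 3.44, 1.58 and 4.70 in Col-0 in MS, 8.94, 5.51 and 1.74 in iU1-52 in MS, 6.45, 8.31 and 7.03 in Col-0 in NaCl, and 5.86, 4.59 and 3.98 in iU1-52 in NaCl. All arrays of Col-0 in NaCl lay above those of Col-0 in MS and above those of iU1-52 in NaCl, and iU1-52 in MS spanned most of the range of the other groups. The fitted salt difference in Col-0 was 4.02 (SE 1.49, adjusted p = 0.034), and its size is no measured fold, since 1 of the 3 arrays in MS was above background. It was 1.44 with normexp background correction. The call was lost under the methods' 2-way test with the fold criterion and without any 1 of 4 arrays, replicates 1 and 2 of Col-0 in MS (4.13 and 3.19) and replicates 2 and 3 of Col-0 in NaCl (3.50 and 4.14). In iU1-52 the salt difference was -0.59 (95% CI -3.91 to 2.74). The interaction was -4.61 (SE 2.11, adjusted p = 0.12), and -6.44 (adjusted p = 0.016) without replicate 3 of iU1-52 in MS.

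*bHLH39* passed the signal limit only through replicates 1 and 2 of iU1-52 in MS, the group from which it fell, so its call is a description. Its levels were 5.66, 6.21 and 6.26 in Col-0 in MS, 7.99, 6.99 and 5.75 in iU1-52 in MS, 4.12, 5.62 and 4.89 in Col-0 in NaCl, and 5.77, 4.50 and 5.19 in iU1-52 in NaCl. The arrays with salt lay below those without in Col-0, and in iU1-52 the groups overlapped by replicate 3 in MS and replicate 1 in NaCl. The level fell by 1.76 with salt in iU1-52 (SE 0.55, adjusted p = 0.016), and the difference in Col-0 was -1.17 (SE 0.55, adjusted p = 0.082). The call in iU1-52 was lost with normexp background correction (-0.80), without replicate 1 in MS (-1.22) and without replicate 2 in NaCl (-1.43). The difference in Col-0 passed the methods' 2-way test with the fold criterion, which is no test of that comparison alone. It was called without replicate 2 of Col-0 in NaCl (-1.54, adjusted p = 0.044). Through the shared estimate of the spread, it was also called without replicate 1 or 3 of iU1-52 in MS (adjusted p = 0.046 and 0.039). Between the lines *bHLH39* differed by 0.87 (adjusted p = 1) in MS and by 0.28 (adjusted p = 0.69) in NaCl, where the difference was -0.026 without replicate 1 of iU1-52.

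*bHLH38*, its neighbour, passed the limit on 2 arrays, replicate 1 of iU1-52 in MS and replicate 2 of Col-0 in NaCl. Its levels were 5.11, 4.92 and 5.88 in Col-0 in MS, 7.58, 6.12 and 4.90 in iU1-52 in MS, 5.87, 6.90 and 6.35 in Col-0 in NaCl, and 6.54, 5.08 and 6.27 in iU1-52 in NaCl. All groups overlapped in each of the 4 comparisons. The differences were 1.07 (95% CI -0.30 to 2.44) with salt in Col-0, -0.24 (95% CI -1.61 to 1.13) with salt in iU1-52, 0.90 (95% CI -0.47 to 2.27) between the lines in MS and -0.41 (95% CI -1.78 to 0.96) between them in NaCl.

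**Figure D3:**
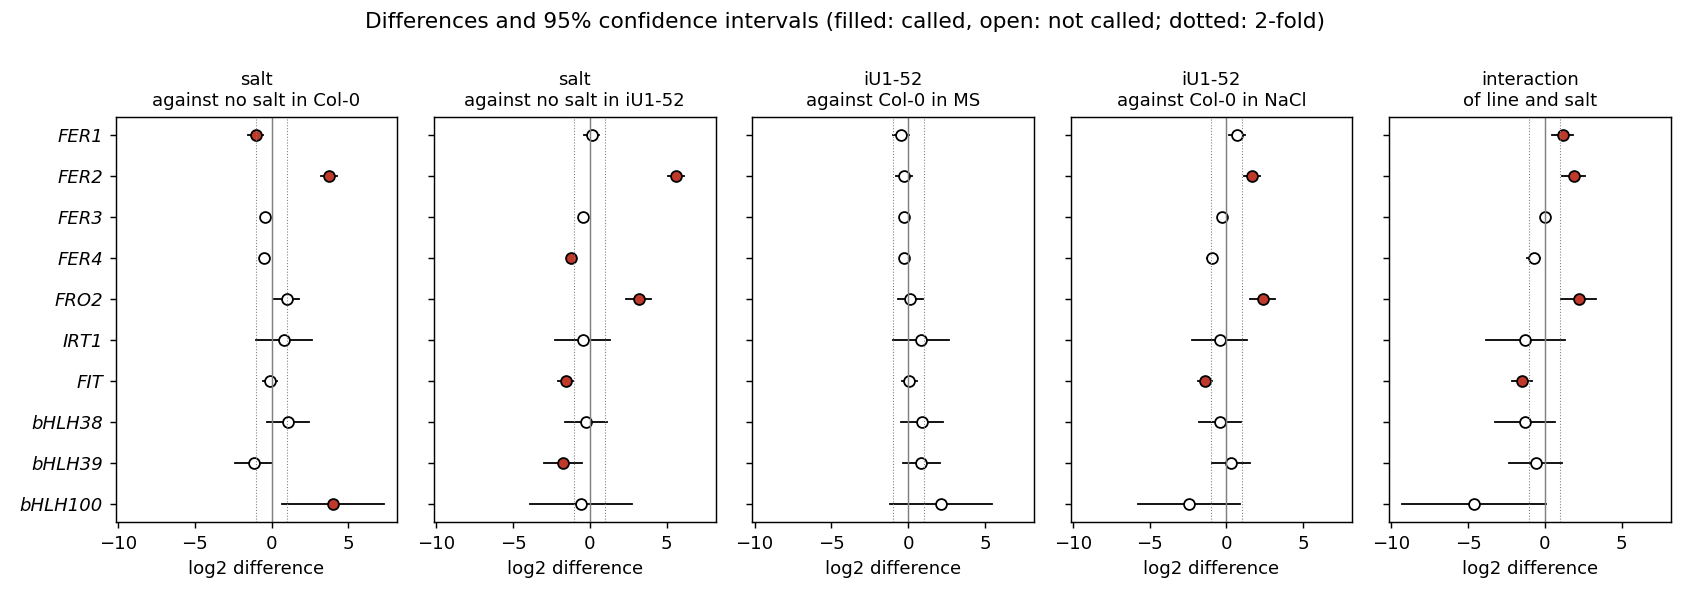
Log2 differences (x axis) of the 10 genes in the 5 comparisons, with 95% confidence intervals as lines, filled points for called differences and dotted lines at 2-fold. The intervals of *IRT1*, *bHLH38*, *bHLH39* and *bHLH100* are the widest, and in MS no point is filled.

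The spread of *IRT1* and the Ib genes in iU1-52 in MS followed the same arrays. Replicate 1 was highest and replicate 3 lowest for *IRT1*, *bHLH38*, *bHLH39* and *bHLH100*, with gaps between these arrays of 3.77, 2.68, 2.24 and 7.20. *FRO2* had a gap of 1.14 in the same direction, and *FER1* one of -0.72 in the opposite direction. The other iron genes with wide gaps, chosen after their values were seen, were *bHLH101*, the remaining Ib factor, at 10.19, 8.68 and 6.78 on the 3 arrays, AT1G47400 at 9.53, 8.27 and 7.64, and AT1G47395 at 10.29, 9.17 and 8.68. These were 3 of the 63 genes of the iron pathway list described below that were higher by 1 or more in replicate 1 than in replicate 3, a share of 4.76%, against 0.589% of 23932 features with values on both arrays. *FIT* did not share the pattern, with levels of 9.89, 9.98 and 10.15. In Col-0 in MS, AT1G47400 was at 7.17, 7.21 and 6.89 and AT1G47395 at 8.22, 8.46 and 7.98. For both loci every iU1-52 array in MS lay above every Col-0 array in MS, although neither line difference was called. The lines overlapped for *bHLH101*, which was at 6.78, 5.92 and 7.60 in Col-0 in MS.

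**Figure D4:**
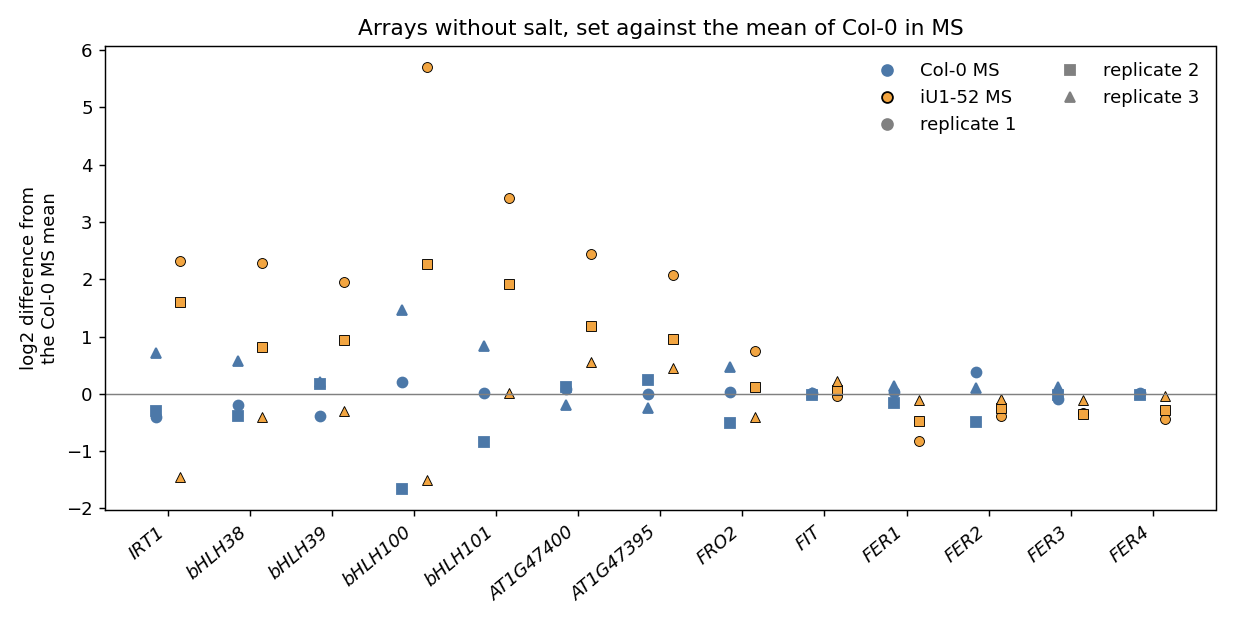
Log2 level on each array without salt minus the mean of Col-0 in MS (y axis) for the 10 genes and 3 other iron genes (x axis), with colour by line and symbol by replicate. Replicate 1 of iU1-52 lies 5.70 above the Col-0 mean for *bHLH100* and 0.83 below it for *FER1* (a difference of -0.83), and replicate 3 lies lowest of the line for *IRT1* and the Ib genes.

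Over the 12 arrays the levels of some of the 10 genes ran together. As a description over 12 arrays of 4 groups, which share the salt contrast, Pearson's r was 0.94 between *FER4* and *FIT*, 0.92 between *FER3* and *FER4*, -0.96 between *FER4* and *FRO2*, -0.92 between *FRO2* and *FIT* and 0.87 between *FER2* and *FRO2*. *FER1* had its strongest relations with *bHLH100* (r = -0.74) and *bHLH38* (r = -0.70), and *bHLH38* and *bHLH100* had r = 0.89 with each other.

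Beyond the 10 genes, the features with the most similar pattern over the 12 arrays were AT3G05190 (r = 0.999) and the vacuolar processing enzyme gene *BETA-VPE* (r = 0.998) for *FER2*, *AHG1* (r = 0.983), a phosphatase of abscisic acid signaling in seeds, for *FRO2*, *RL3* (r = 0.986) for *FER4*, *MYB3R-5* (r = 0.969) for *FER3* and AT4G34360 (r = 0.991) for *FIT*, after a probe without a gene match (A_84_P859558, r = 0.991). How many features had an r over 0.9 differed widely, with 3731 for *FER2*, 1456 for *FER4*, 1145 for *FIT*, 1080 for *FRO2* and 343 for *FER3*. The others had few or no such features: 6 for *FER1*, 1 each for *IRT1* and *bHLH39*, and 0 for *bHLH38* and *bHLH100*. The nearest features were a probe without a match for *FER1* (A_84_P811787, r = 0.956), for *IRT1* (A_84_P74044, r = 0.958) and for *bHLH39* (A_84_P789823, r = 0.926), and *bHLH38* and *bHLH100* were nearest to each other.

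Other genes of iron uptake, transport, storage, regulation and Fe-S cluster assembly were taken from a list of 71 genes, of which 69 had a probe and 63 were tested. With salt, 6 were called higher and 12 lower in Col-0 (23.2% of all features called), and 10 higher and 13 lower in iU1-52 (27.4%). These counts include genes that reached the signal limit only with salt (AT3G58060 and *IREG1*) or only without it (*FRO5* and *VTL2*). The calls of these genes with salt are a description. Between the lines 0 were called in MS (0.326%), where 3 passed the methods' 2-way test with the fold criterion (*bHLH101*, AT1G47400 and AT1G47395). That test takes its p from any term, salt included, so it did not test the line difference in MS. AT1G47400 and AT1G47395 entered the list as *IMA1* and *IMA2*. The paper, which used a 2-way test and then a fold criterion, names IRONMAN 1 (*IMA1*) and *IMA2* among genes that differed between the lines with and without salt. In NaCl 3 were called higher and 10 lower in iU1-52 (11%). These 13 were 8 without replicate 2 of iU1-52 in NaCl. The interaction was called positive for 2 and negative for 12 (9.5%). The list's median difference was 0.02, 0.08, -0.01, -0.15 and -0.11 in the 5 comparisons in this order, beside -0.01, 0.03, -0.01, 0.05 and 0.05 over all features.

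Among the relatives of *FRO2*, *FRO4* to *FRO8* were called lower with salt in both lines. *FRO3*, named after its values were seen, was not called, with differences of -0.67 in Col-0, -0.021 in iU1-52 and 0.79 (adjusted p = 0.0016) between the lines in NaCl, under 2-fold. *FRO7*, the ferric reductase of the chloroplast, fell with differences of -5.03 (SE 0.20) in Col-0 and -6.50 (SE 0.20) in iU1-52. *FRO6*, a reductase of the shoot that lies next to *FRO7*, fell with differences of -4.59 and -5.78. The differences were -2.10 and -3.35 for *FRO8*, and -3.46 and -4.06 for *FRO4*, a root surface reductase. *FRO5* reached the signal limit only on arrays in MS, from which it fell, so its calls are a description. *FRO5* was above background on 1 of 3 arrays of Col-0 in NaCl, so the size of its fall there is not given, and it was at least 54.9-fold lower with salt in iU1-52, where 0 of 3 arrays were above background in NaCl and the lowest signal well above background stood in for its level. In NaCl *FRO7* and *FRO8* were also lower in iU1-52, by differences of -1.04 and -1.35. *IRT2*, which lies next to *IRT1*, fell with differences of -1.87 in Col-0 and -2.26 in iU1-52, and those of the copper transporter gene *COPT2* were -1.57 and -2.83.

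Genes of iron chelation and distribution changed in both directions. The nicotianamine synthase gene *NAS3* fell with salt, with differences of -2.51 in Col-0 and -5.36 in iU1-52 and a line difference of -3.55 (SE 0.33, adjusted p = 1.8e-05) in NaCl. *YSL1*, a transporter of iron-nicotianamine complexes, fell with differences of -1.83 and -3.79 and a line difference of -2.48 in NaCl. The synthase genes *NAS1* and *NAS4* rose instead, by 1.22 and 2.03 in Col-0 and by 1.80 and 2.31 in iU1-52. *NRAMP3*, which releases iron from the vacuole, rose by 1.68 in iU1-52 and was higher in that line in NaCl by 1.06.

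Among the Fe-S genes, *NEET* was called lower with salt in iU1-52 only. Its levels were 13.27, 12.97 and 12.94 in Col-0 in NaCl and 10.03, 8.84 and 8.33 in iU1-52 in NaCl, a difference of -3.99 (SE 0.34, adjusted p = 1.1e-05), and its interaction was -3.76 (SE 0.49, adjusted p = 0.0004). *NFU3*, a scaffold protein gene of chloroplast Fe-S assembly, had a line difference of -1.47 in NaCl and an interaction of -1.51, and *ISU1*, the mitochondrial scaffold gene, rose by 1.01 with salt in each line.

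Of the regulators on the list, AT1G47400 and AT1G47395, which are neighbours, rose with salt by 3.77 and 3.79 in Col-0 and by 1.05 and 1.20 in iU1-52. Their interactions of -2.71 (SE 0.60, adjusted p = 0.0078) and -2.58 (SE 0.63, adjusted p = 0.012) were called. *bHLH100* had fitted differences of 4.02 and -0.59 in these comparisons, and its interaction was not called. *bHLH101* fell by 2.87 (SE 0.77, adjusted p = 0.0067) with salt in iU1-52 and differed by -0.30 in Col-0, and its interaction of -2.57 was not called. The locus with the largest fitted rise on the list was AT3G58060, at 5.78 in Col-0 and 7.05 in iU1-52, with 2 and 1 of 3 arrays in MS above background. It reached the signal limit only on arrays with salt, on which it is high. Its calls with salt are therefore a description, and their sizes are no measured folds.

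**Figure D5:**
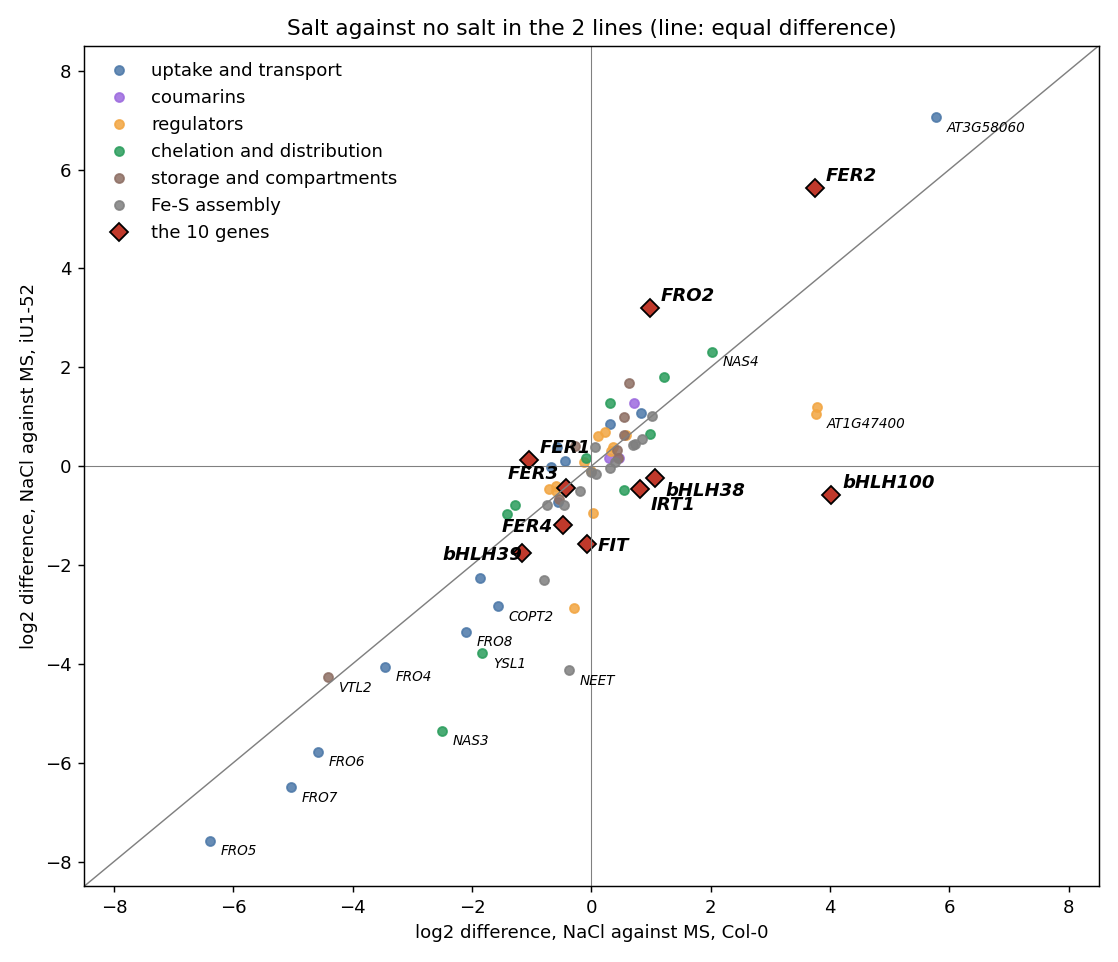
Log2 difference with salt in Col-0 (x axis) and in iU1-52 (y axis) for the 10 genes (diamonds) and the 63 tested genes of the iron pathway list (circles, coloured by role), with a line at equal differences. *FER2* and *FRO2* lie above the line, *FIT* and *bHLH100* below it, and *FRO6* and *FRO7* at the lower left beside *FRO5*, whose place is that of a signal near background with salt.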

How the data were processed

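The authors deposited, per array, the Cy3 intensity of each spot from Feature Extraction 10.7.1.1, background-subtracted and detrended within the array and not normalized between arrays, with median pixel intensities and spot flags. From these intensities, control and outlier spots were removed, spots of a probe averaged, probes under 100 on every array dropped, the rest quantile normalized and log2 transformed. Of several probes, that with the highest mean represented the gene. Names came from the TAIR10.1 gene table by accession (34358 of 43603 probes matched). The array's annotation names another build, so no coordinates are given. A mean per group was fitted over 12 arrays with limma 3.58.1 in R 4.3.3 (lmFit, eBayes, two-sided). The 10 genes, the lists and the tests were chosen with earlier results of these data known. The genes named are the 10, list genes called in any comparison and the nearest patterns. The procedure was tested on simulated data with changes planted in 1 group, no salt effect and the same spread in every group. These data differ in both respects, so error rates in the comparisons given here were not tested. Each replicate number is 1 slide and each group kept 1 position on all slides, and these cannot be told apart. Same-numbered arrays deviated together with r between -0.05 and 0.21 (median 0.02), so the numbers were not taken as pairs. The number of arrays limits the precision. The methods say that labelled products were pooled before hybridization, without saying which. The alternatives tried were normexp correction (offset 50), 75th percentile scaling, other filters, array weights, the mean of all probes or each probe, a replicate block, each criterion alone, the methods' 2-way test, and each array left out.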

Additional observations from a re-analysis of the deposited data

Results flagged for a closer look

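The response to salt differed between the lines, by the test of the interaction itself, for 4 of the 10 genes. The interaction was 1.16 for *FER1*, 1.88 for *FER2*, 2.21 for *FRO2* and -1.50 for *FIT*. For *FER2*, *FRO2* and *FIT* this call held under every alternative that was run, while for *FER1* the value lay between 0.91 and 1.44 and was called in 16 of 22 settings. All 4 interactions kept their sign within each of the 3 slides. These 4 were chosen by their calls on the same arrays, so this is a description and no further support.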

How the results depend on the processing

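With the adjusted p alone, the number of the 10 genes that passed was 6 with salt in Col-0 (69% of all features) and 6 between the lines in NaCl (51%), and the number of the 63 list genes was 50 with salt in Col-0, 52 with salt in iU1-52 (67.9%), 40 between the lines in NaCl and 27 for the interaction (28.7%). With the fold criterion alone, 5 of the 10 passed with salt in Col-0 (23.6%), 1 in MS (1.19%) and 7 for the interaction (11.3%), and 3 of the list in MS. The methods' 2-way test with the fold criterion, which takes its p from any term, passed 3 of the list in MS. Leaving out 1 array gave 2 to 4 and 4 to 6 of the 10 with salt in Col-0 and iU1-52, 0 to 0 in MS, 3 to 4 in NaCl and 3 to 6 for the interaction. For the list these were 17 to 19, 20 to 25, 0 to 0, 8 to 13 and 12 to 16, with 8 without replicate 2 of iU1-52 in NaCl. Small uncalled values turned sign. The *bHLH39* line difference in NaCl was -0.12 with scaling to the 75th percentile, -0.061 without a filter on dim probes, -0.036 with a filter on signal above background and -0.21 with array weights, and the *FER3* interaction was 0.021 with array weights. With 1 array left out, values that turned sign spanned -0.17 to 0.034 (*FIT*, salt in Col-0), -0.13 to 0.33 (*FER1*), -1.60 to 0.29 (*IRT1*), -0.89 to 0.45 (*bHLH38*) and -2.42 to 1.19 (*bHLH100*) with salt in iU1-52, -0.14 to 0.43 (*FRO2*, lines in MS), -0.70 to 0.034 (*bHLH38*) and -0.10 to 0.65 (*bHLH39*) in NaCl, and -0.067 to 0.068 (*FER3*, interaction). Of the values of the 10 genes with 1 array left out, 562 kept their direction and side of the criteria, 12 lost a call, 9 gained one and 17 turned sign. The causes were not tested. The replicate block changed no call among the 10 genes and moved the calls over all features from 2275 to 2263 for the interaction. Dim signal limits *IRT1* and the Ib genes.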
